A study of Mus musculus with 12 samples.

Results

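The 41 genes described here encode the machinery of the cell division cycle, from licensing of replication origins to cytokinesis. They were a fixed list of symbols, each matched to 1 Ensembl row of a table of 36131 genes. The genes were measured by poly(A) RNA-seq in retinas of C57BL/6J wildtype mice at postnatal day 18 (P18), with 1 library per mouse. The 12 mice formed 3 groups of 4. RA-PBS mice (animals 1 to 4) stayed in room air and received placebo (PBS). O2-PBS mice (animals 5 to 8) were kept in 75% oxygen from P7, returned to room air at P12 and received placebo, a schedule known as oxygen-induced retinopathy. O2-IC100 mice (animals 9 to 12) had the same oxygen exposure and received IC100, a humanized antibody against the inflammasome adaptor ASC, as intraperitoneal doses of 10 µg per g body weight at P12 and again at P14 and P16. The labels put the placebo under the same intraperitoneal schedule. The published study describes its placebo as an intravitreal injection, so the route in the placebo mice is uncertain.

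A dividing cell first licenses its replication origins by loading the MCM helicase in G1, copies its DNA in S phase, and then separates the copies in mitosis under the control of cyclin-dependent and Aurora kinases. Most neurons of the mouse retina have left the cycle by the end of the first weeks after birth, while vascular cells, glia and microglia can still divide. In oxygen-induced retinopathy, vessels are lost during hyperoxia and regrow, in part as abnormal tufts, after the return to room air. In bulk tissue such as this, a change in the number of dividing cells and a change in RNA per cell cannot be told apart.

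The libraries held 14907143 to 24438082 estimated counts, of which 3014 to 6079 fell on the 41 genes. Rod photoreceptor markers took 3.81 to 4.74% of the counts in 11 libraries and 0.338% in animal 10 of the O2-IC100 group, where lens genes took 58.2%. Lens genes also took 4.47, 1.40 and 1.24% in RA-PBS animals 3, 4 and 2, and 0.00317 to 0.0157% in the remaining 8 libraries. The genes were therefore tested in a fit of all 12 animals and in a fit without animal 10, and fold changes are from the fit without animal 10 unless another fit is named. Levels are given as CPM, counts scaled to library size after trimmed-mean (TMM) normalization. Calls came from edgeR's quasi-likelihood test and required a 1.5-fold difference, p under 0.05 and a Benjamini-Hochberg adjusted p under 0.1 across the tested genes. Of the 41 genes, 40 passed the low-count filter in both fits. Bub1, a spindle checkpoint kinase, had 0 to 3.88 counts per library and was not tested.

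Promoters of 4 members, taken in a preset order of symbols, are shown because many cell cycle genes carry the same short promoter elements. The windows run from 250 bases before to 50 bases after the start site (RefSeq, GRCm38.p6, all on the minus strand and written 5′ to 3′ of the gene). They lie at chr7:135716330-135716629 for Mki67, chr11:99024140-99024439 for Top2a, chr10:69352863-69353162 for Cdk1 and chr13:100786437-100786736 for Ccnb1. Capitals mark matches, on either strand, to TTTGAA or TTTAAA (the cell cycle genes homology region, CHR), to CCAAT, and to the E2F-type letters TTTCGCGC, TTTGGCGC, TTTCCCGC and TTTGCCGC.
Mki67: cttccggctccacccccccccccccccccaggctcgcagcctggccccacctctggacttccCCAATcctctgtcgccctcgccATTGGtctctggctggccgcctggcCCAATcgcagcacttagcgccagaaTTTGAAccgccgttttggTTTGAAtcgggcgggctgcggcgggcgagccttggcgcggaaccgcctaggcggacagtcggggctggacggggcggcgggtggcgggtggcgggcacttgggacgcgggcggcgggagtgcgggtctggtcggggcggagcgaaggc
Top2a: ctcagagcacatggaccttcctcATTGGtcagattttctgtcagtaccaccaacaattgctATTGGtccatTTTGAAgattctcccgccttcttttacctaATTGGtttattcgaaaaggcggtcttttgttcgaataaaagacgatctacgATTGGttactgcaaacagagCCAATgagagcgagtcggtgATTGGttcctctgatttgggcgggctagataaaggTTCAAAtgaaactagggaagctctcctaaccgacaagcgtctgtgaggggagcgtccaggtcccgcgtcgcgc
Cdk1: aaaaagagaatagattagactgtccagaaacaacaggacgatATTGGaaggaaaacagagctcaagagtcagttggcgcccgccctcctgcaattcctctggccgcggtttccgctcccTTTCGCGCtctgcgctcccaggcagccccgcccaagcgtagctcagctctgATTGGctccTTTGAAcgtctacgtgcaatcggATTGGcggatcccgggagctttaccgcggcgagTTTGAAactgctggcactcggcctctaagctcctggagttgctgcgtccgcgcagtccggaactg
Ccnb1: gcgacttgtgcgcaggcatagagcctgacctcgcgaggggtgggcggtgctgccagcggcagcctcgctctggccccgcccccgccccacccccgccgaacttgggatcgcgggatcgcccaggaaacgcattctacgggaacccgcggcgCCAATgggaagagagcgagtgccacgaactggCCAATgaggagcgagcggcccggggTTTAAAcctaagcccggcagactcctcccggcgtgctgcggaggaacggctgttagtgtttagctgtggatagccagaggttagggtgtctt

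The Mki67 window held 2 CHR and 3 CCAAT matches, and the Top2a window 2 and 6. The Cdk1 window held 2 CHR matches, 3 CCAAT matches and 1 E2F match at 131 bases before the start site. In Ccnb1, 1 CHR match lay 42 bases before the start site with 2 CCAAT matches upstream. RefSeq windows were found for 34 of the 41 genes. Mcm4, Ccna2, Ccne2, Foxm1, Aurkb, Kif20a and Tpx2 were without one. A gene was counted when any of its windows held a match. A CHR match was present for 23 of the 34 genes (67.6%), against 30.6% of 27025 genes, and a CCAAT match for 25 (73.5%), against 41.1%. Both were present, in the same or in different windows of a gene, for 20 genes (58.8%), against 13.4%. E2F letters were present for 7 genes (20.6%), against 2.60%. The matches are descriptions of letters and were not tested as binding sites.

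The first comparison, O2-PBS against RA-PBS, asks how the cell cycle genes stood in the P18 retina after hyperoxia and return to room air. The largest differences were those of the proliferation marker Mki67, the DNA topoisomerase Top2a and the mitotic kinase Cdk1, all higher in O2-PBS. Other mitotic genes, such as Plk1, Aurka, Bub1b and Nusap1, and S phase genes abundant in room air, such as Pcna and Mcm7, were not called in either fit. In the fit of all 12 animals, 3 of the 40 tested genes rose (Mki67, Cdk1 and Mcm6) and 0 fell, where 0.782% of all 16489 tested genes rose and 0.0243% fell. In the fit without animal 10, 17 of 40 (42.5%) rose and 0 fell, where 4.09% of 16688 genes rose and 2.18% fell. The log2 fold change of a member differed between the 2 fits by at most 0.0096 in this comparison. The median log2 fold change of the 40 genes was 0.79 in both fits, against -0.01 over all tested genes, and 37 of the 40 had a higher mean in O2-PBS. For 24 of the 40, every O2-PBS animal was above every RA-PBS animal, against 7.79% of all tested genes in that direction. The count of calls rested on the fit. Leaving out any 1 of the 8 RA-PBS and O2-PBS animals from the fit of 12 left 0 or 1 call. A fit of these 8 animals alone called 14 of 39 as higher, against 3.53% of all genes. The share of all tested genes called also moved between fits, so the counts of 0 or 1 alone do not describe the members.

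**Figure D1:**
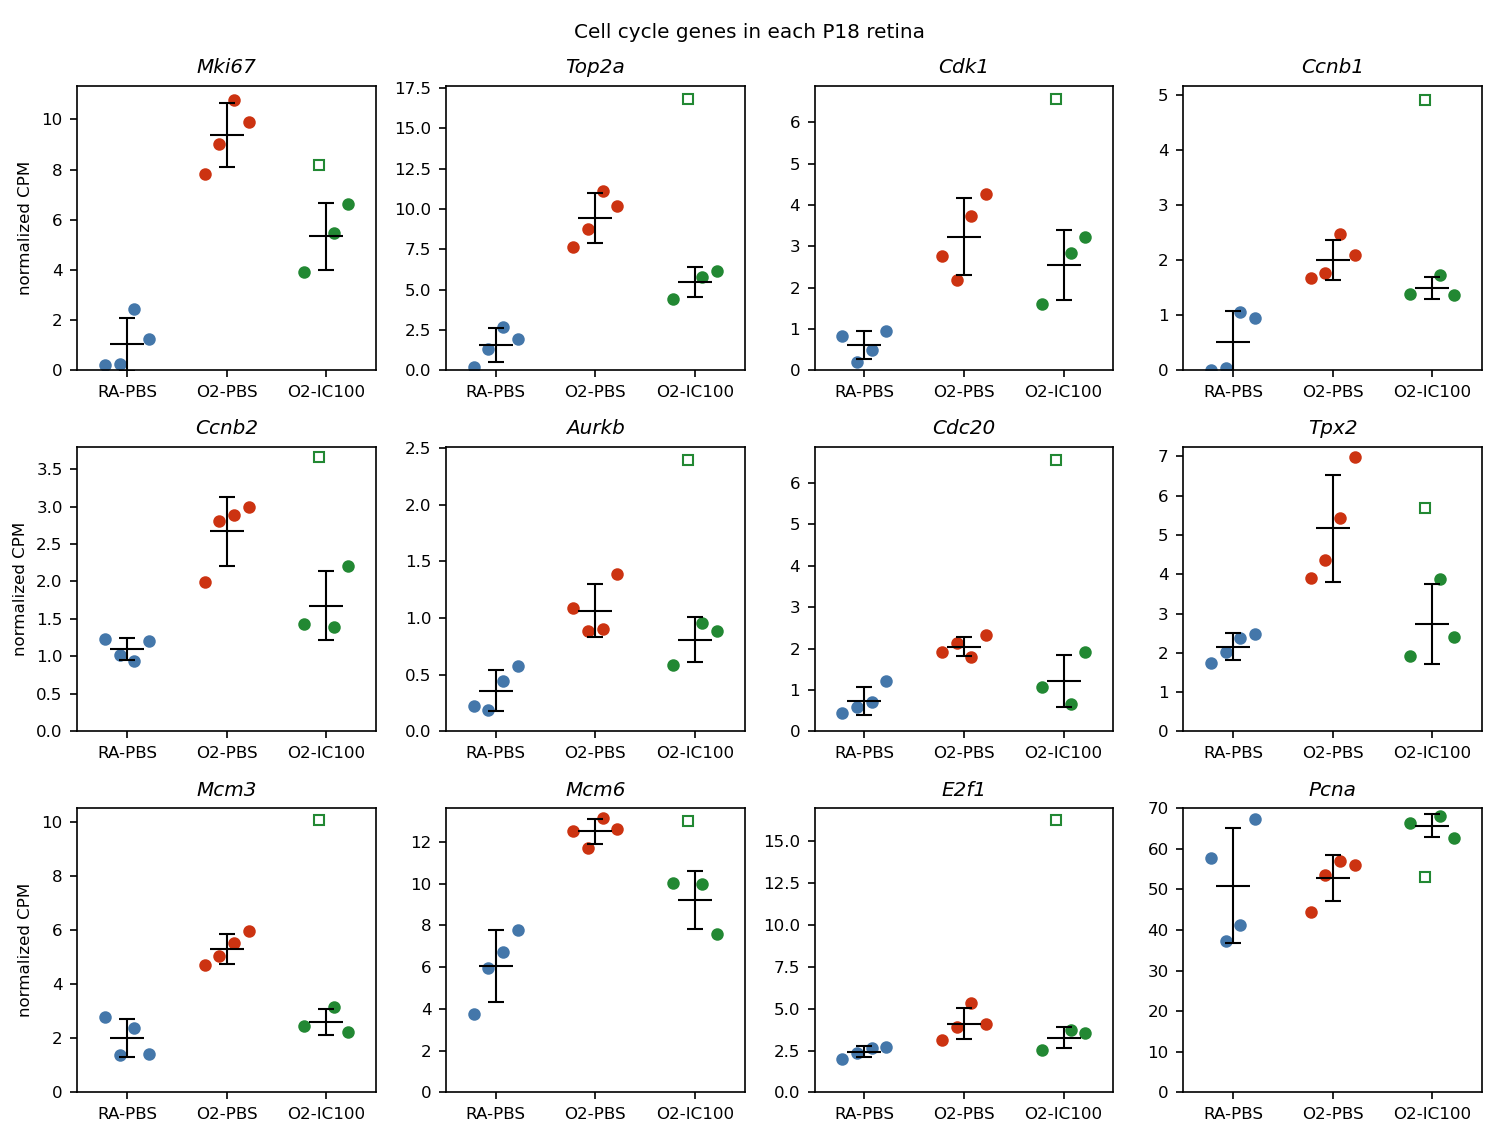
TMM-normalized CPM (linear axes from 0) of 12 members in each animal; filled circles are animals, the open square is lens-rich animal 10, and black marks are the mean and SD without animal 10, with bars clipped at 0. Mki67, Top2a and Cdk1 show no overlap between RA-PBS and O2-PBS, while Pcna overlaps between them.

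Mki67, whose protein coats mitotic chromosomes and marks cycling cells, stood at a CPM of 0.224, 0.241, 2.44 and 1.26 in RA-PBS, 7.83, 9.01, 10.8 and 9.91 in O2-PBS, and 3.94, 5.47 and 6.61 in O2-IC100 animals 9, 11 and 12, with 8.20 in animal 10. All 4 O2-PBS animals were above all 4 RA-PBS animals, and RA-PBS animals 1 and 2, with 4 and 5 counts, were the lowest. The log2 fold change was 3.18 ± 0.51 (SE; adjusted p = 0.00269, edgeR) without animal 10 and 3.17 ± 0.62 (adjusted p = 0.0555, edgeR) with it. Top2a, which untangles replicated DNA, had a CPM of 0.224, 1.35, 2.72 and 1.95 in RA-PBS, 7.65, 8.75, 11.1 and 10.2 in O2-PBS, and 4.42, 5.80 and 6.17 in O2-IC100 animals 9, 11 and 12, with 16.8 in animal 10. RA-PBS and O2-PBS did not overlap, and animal 10 was the highest of all 12. Its log2 fold change was 2.59 ± 0.40 (adjusted p = 0.00206, edgeR) without animal 10. With animal 10 it was 2.59 ± 0.59 and the adjusted p of 0.109 was just outside the threshold.

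Cdk1, the kinase that drives entry into mitosis, had a CPM of 0.841, 0.193, 0.499 and 0.947 in RA-PBS, 2.77, 2.19, 3.73 and 4.26 in O2-PBS, and 1.60, 2.83 and 3.23 in O2-IC100 animals 9, 11 and 12, with 6.56 in animal 10. The lowest O2-PBS animal was above the highest RA-PBS animal. Cdk1 rose by a log2 fold change of 2.38 in both fits (± 0.41, adjusted p = 0.00337 without animal 10, and ± 0.52, adjusted p = 0.0916 with it, edgeR). Cyclin B1 (Ccnb1), its activating partner, was at a CPM of 0, 0.0483, 1.05 and 0.947 in RA-PBS, 1.69, 1.77, 2.48 and 2.10 in O2-PBS, and 1.38, 1.73 and 1.37 in O2-IC100 animals 9, 11 and 12, with 4.92 in animal 10. RA-PBS animals 1 and 2 had 0 and 1 count, whereas animals 3 and 4 had about 19 and 18, so the room air group was itself split. Ccnb1 rose in the fit without animal 10 but not in the fit of 12 (1.97 ± 0.67, adjusted p = 0.0938, against 0.659 with it, edgeR). Cyclin B2 (Ccnb2) stood at 1.23, 1.01, 0.943 and 1.21 in RA-PBS, 1.99, 2.81, 2.88 and 2.99 in O2-PBS, and 1.44, 1.39 and 2.20 in O2-IC100 animals 9, 11 and 12, with 3.66 in animal 10. RA-PBS and O2-PBS did not overlap, and Ccnb2 rose by 1.28 ± 0.26 (log2, adjusted p = 0.00891, edgeR) without animal 10, with an adjusted p of 0.162 in the fit of 12.

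Neither of the other cyclins among the members was called. Cyclin E2 (Ccne2), which acts at the G1 to S transition, had a CPM of 8.52, 8.78, 8.43 and 10.9 in RA-PBS, 7.65, 8.64, 8.30 and 9.47 in O2-PBS, and 10.2, 10.3 and 10.4 in O2-IC100 animals 9, 11 and 12, with 4.29 in animal 10. RA-PBS and O2-PBS overlapped, and the log2 fold change was -0.10 ± 0.12 without animal 10. Cyclin A2 (Ccna2), the partner of Cdk2 and Cdk1 from S phase on, had a log2 fold change of 0.36 ± 0.14 (adjusted p = 0.140, edgeR). Its O2-PBS animals (30.06 to 34.12 CPM) were all above its RA-PBS animals (16.87 to 29.34 CPM).

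Among the mitotic kinases and checkpoint genes, 1 of 6 tested rose without animal 10. Aurora kinase B (Aurkb), of the chromosomal passenger complex, had a CPM of 0.224, 0.193, 0.444 and 0.579 in RA-PBS, 1.08, 0.885, 0.904 and 1.39 in O2-PBS, and 0.585, 0.959 and 0.882 in O2-IC100 animals 9, 11 and 12, with 2.40 in animal 10. The RA-PBS and O2-PBS ranges did not overlap, and Aurkb rose by 1.55 ± 0.42 (log2, adjusted p = 0.0380, and 0.343 in the fit of 12, edgeR). Its passenger partner survivin (Birc5) stood at 1.18, 3.67, 3.10 and 2.10 in RA-PBS, 4.70, 4.11, 4.35 and 3.88 in O2-PBS, and 2.39, 0.959 and 2.45 in O2-IC100 animals 9, 11 and 12, with 3.91 in animal 10. Every O2-PBS animal was above every RA-PBS animal, but the difference of 0.76 ± 0.33 (log2) had an adjusted p of 0.197 (edgeR). Plk1, Aurka and Bub1b, which act in spindle assembly and the checkpoint, had log2 fold changes of 0.21, 0.25 and -0.09. Those of the checkpoint kinase Ttk and of Melk were 1.03 and 0.95, with adjusted p values of 0.174 and 0.529 (edgeR).

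Both members tied to the anaphase-promoting complex, the ubiquitin ligase that ends mitosis, rose without animal 10. Its activator Cdc20 was at a CPM of 0.449, 0.579, 0.721 and 1.21 in RA-PBS, 1.93, 2.13, 1.81 and 2.33 in O2-PBS, and 1.06, 0.671 and 1.91 in O2-IC100 animals 9, 11 and 12, with 6.56 in animal 10, and rose by 1.46 ± 0.38 (log2, adjusted p = 0.0298, and 0.653 in the fit of 12, edgeR). Its ubiquitin-conjugating enzyme Ube2c was at 0.561, 0.676, 1.22 and 1.21 in RA-PBS, 2.05, 1.30, 2.15 and 2.49 in O2-PBS, and 1.44, 1.34 and 2.65 in O2-IC100 animals 9, 11 and 12, with 3.91 in animal 10, and rose by 1.12 ± 0.35 (log2, adjusted p = 0.0701, and 0.477 in the fit of 12, edgeR). For both genes the O2-PBS animals lay above the RA-PBS animals without overlap, and neither was called in the fit of 12. Cenpe, a kinetochore motor, had a CPM of 3.14, 4.92, 6.93 and 6.00 in RA-PBS, 9.22, 9.11, 9.15 and 8.64 in O2-PBS, and 5.96, 5.08 and 8.96 in O2-IC100 animals 9, 11 and 12, with 3.91 in animal 10, and rose by 0.78 ± 0.22 (log2, adjusted p = 0.0474, and 0.451 in the fit of 12, edgeR). The large kinetochore protein gene Cenpf had a log2 fold change of 1.41 ± 0.55 (adjusted p = 0.141, edgeR), and its counts in RA-PBS animal 1 were 0.

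Of the 8 spindle and cytokinesis genes, 5 rose without animal 10 and 0 fell. Tpx2, which activates Aurora A on the spindle, had a CPM of 1.74, 2.03, 2.38 and 2.47 in RA-PBS, 3.92, 4.37, 5.42 and 6.98 in O2-PBS, and 1.92, 3.88 and 2.40 in O2-IC100 animals 9, 11 and 12, with 5.68 in animal 10, and rose by 1.26 ± 0.26 (log2, adjusted p = 0.00971, and 0.193 in the fit of 12, edgeR). The midzone kinesins Kif23 and Kif20a followed. Kif23 was at 0.280, 1.93, 1.72 and 1.47 in RA-PBS, 3.07, 3.54, 2.88 and 3.32 in O2-PBS, and 2.5, 2.97 and 1.76 in O2-IC100 animals 9, 11 and 12, with 1.01 in animal 10. Its 4 O2-PBS animals were above the RA-PBS animals, of which animal 1 was far below the others, and it rose by 1.24 ± 0.39 (log2, adjusted p = 0.0662, and 0.512 in the fit of 12, edgeR). Kif20a stood at 2.19, 3.19, 3.10 and 3.42 in RA-PBS, 4.64, 4.53, 6.04 and 5.37 in O2-PBS, and 3.62, 3.31 and 4.75 in O2-IC100 animals 9, 11 and 12, with 4.54 in animal 10. It rose by 0.79 ± 0.20 (log2, adjusted p = 0.0252, and 0.193 in the fit of 12, edgeR), again without overlap. Racgap1, a regulator of the cytokinetic furrow, and the spindle motor Kif11 rose by 0.74 and 0.66 on the log2 scale without animal 10, with adjusted p values of 0.740 and 0.390 in the fit of 12 (edgeR). Prc1, Anln and Nusap1, which act at the midzone, the contractile ring and the spindle, had log2 fold changes of 0.95, 0.93 and 0.01 and were not called.

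The replication genes split. Of the 9 origin licensing and replication fork genes, 2 rose without animal 10, both of them subunits of the MCM helicase. Mcm3 had a CPM of 2.80, 1.40, 2.38 and 1.42 in RA-PBS, 4.70, 5.05, 5.54 and 5.98 in O2-PBS, and 2.45, 3.17 and 2.25 in O2-IC100 animals 9, 11 and 12, with 10.1 in animal 10, and rose by 1.41 ± 0.24 (log2, adjusted p = 0.00342, edgeR) without animal 10, with an adjusted p of 0.373 in the fit of 12. Mcm6 was at 3.76, 5.98, 6.71 and 7.79 in RA-PBS, 12.5, 11.7, 13.2 and 12.6 in O2-PBS, and 10.1, 9.98 and 7.59 in O2-IC100 animals 9, 11 and 12, with 13.0 in animal 10. It rose in both fits, by 1.04 ± 0.19 (log2, adjusted p = 0.00394, edgeR) without animal 10 and with an adjusted p of 0.0907 in the fit of 12. Neither subunit overlapped between RA-PBS and O2-PBS.

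Mcm2, another subunit of the same hexamer, stood at 7.12, 7.04, 6.43 and 6.26 in RA-PBS, 10.0, 8.80, 10.6 and 9.69 in O2-PBS, and 7.02, 6.57 and 7.20 in O2-IC100 animals 9, 11 and 12, with 29.4 in animal 10. RA-PBS and O2-PBS did not overlap and the adjusted p was 0.0136 (edgeR) without animal 10, but its log2 fold change of 0.54 ± 0.12 was under the 1.5-fold threshold. The remaining subunits Mcm4, Mcm5 and Mcm7 had log2 fold changes of 0.18, 0.55 and -0.03. Pcna, the sliding clamp of the DNA polymerases, was at a CPM of 57.7, 37.3, 41.3 and 67.4 in RA-PBS, 44.5, 53.5, 57.0 and 56.0 in O2-PBS, and 66.3, 68.1 and 62.8 in O2-IC100 animals 9, 11 and 12, with 53.1 in animal 10. Room air and oxygen animals overlapped fully, and the log2 fold change was 0.05 ± 0.16. The licensing factors Cdc6 and Cdt1 had log2 fold changes of 1.13 and 0.41, with adjusted p values of 0.145 and 0.207 (edgeR).

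No gene of deoxynucleotide synthesis was called. Rrm2, the regulated subunit of ribonucleotide reductase, had a CPM of 0, 0.676, 0.721 and 1.21 in RA-PBS, 1.45, 1.51, 1.92 and 1.77 in O2-PBS, and 0.958, 0.624 and 1.86 in O2-IC100 animals 9, 11 and 12, with 6.69 in animal 10. All O2-PBS animals were above all RA-PBS animals, but the RA-PBS animals were spread from 0 upward and the log2 fold change of 1.34 ± 0.60 had an adjusted p of 0.211 (edgeR). Thymidine kinase Tk1 and thymidylate synthase Tyms had log2 fold changes of 0.63 and 0.28. E2f1, which switches on S phase genes, had a CPM of 2.02, 2.37, 2.66 and 2.68 in RA-PBS, 3.13, 3.91, 5.31 and 4.10 in O2-PBS, and 2.55, 3.74 and 3.53 in O2-IC100 animals 9, 11 and 12, with 16.3 in animal 10, and rose by 0.76 ± 0.21 (log2, adjusted p = 0.0446, edgeR) without animal 10, with an adjusted p of 0.999 in the fit of 12. Foxm1, which drives the G2 and mitosis program, was at 4.76, 1.06, 1.72 and 1.37 in RA-PBS, 2.53, 1.82, 2.99 and 2.66 in O2-PBS, and 1.33, 1.53 and 1.76 in O2-IC100 animals 9, 11 and 12, with 4.92 in animal 10. RA-PBS animal 1 was above all O2-PBS animals, and the log2 fold change was 0.17 ± 0.40.

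**Figure D2:**
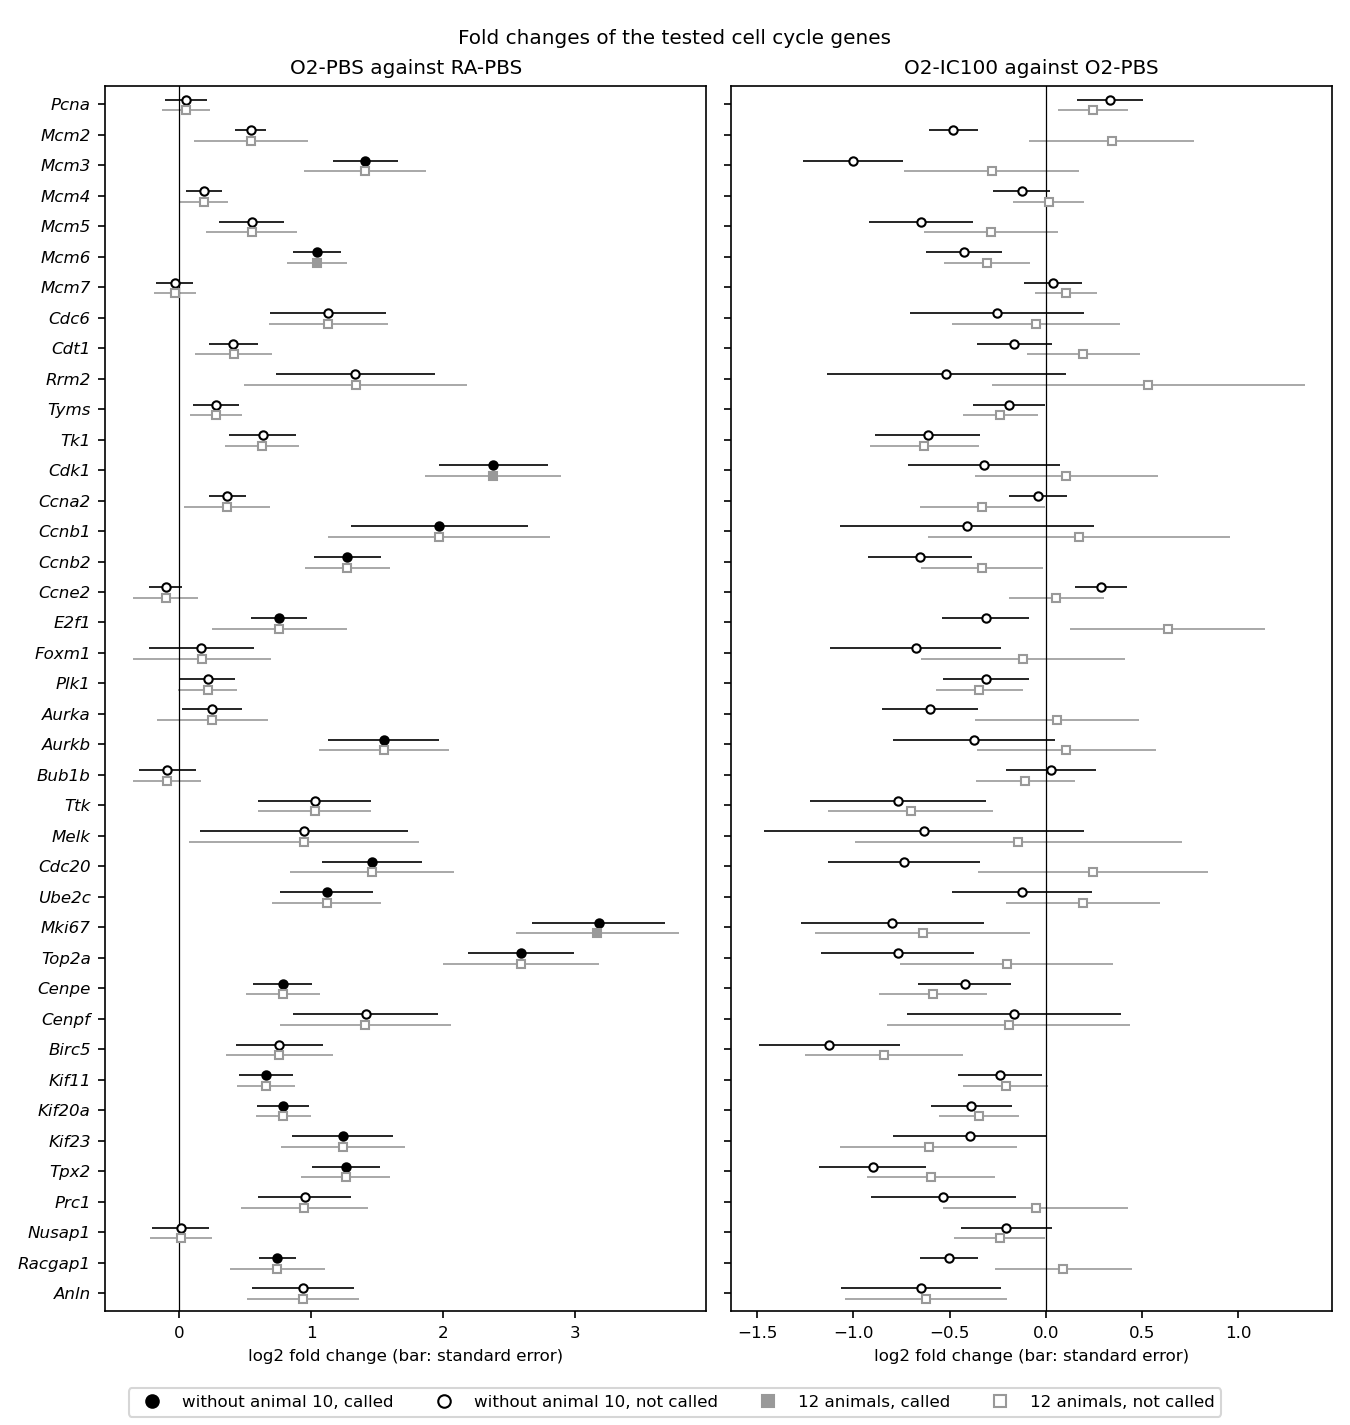
Log2 fold changes with standard errors (horizontal axes, separate ranges) of the 40 tested members in O2-PBS against RA-PBS and in O2-IC100 against O2-PBS; black circles are the fit without animal 10, grey squares the fit of 12, and filled symbols passed the thresholds. In the left panel 17 black and 3 grey symbols are filled, and in the right panel 0.

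Per kilobase of transcript (mean GENCODE M21 length), Pcna was by far the most abundant member, at a mean of 36.6 CPM per kb over the 11 animals without animal 10. Ccna2 (11.7), Mcm7 (8.32), Tk1 (6.76) and Bub1b (4.30) followed, while Mki67, with its long transcript, rose from 0.104 CPM per kb in RA-PBS to 0.933 in O2-PBS. The 9 most abundant members on this scale included 0 of the 17 that rose, and the first of those in rank was Racgap1. The RA-PBS values enter both the level and the fold change. Of the 9, 5 (Ccna2, Mcm7, Tk1, Ccne2 and Prc1) share exonic sequence with a gene on the opposite strand in GENCODE M21. Strand-specific counting is not stated, so reads from such pairs cannot be told apart. Among the 17, Cdc20, Ube2c and Kif20a have such a neighbour, and annotated pseudogene copies of Pcna, Tyms, Ccnb1 and Ccnb2 leave those 4 values uncertain.

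**Figure D3:**
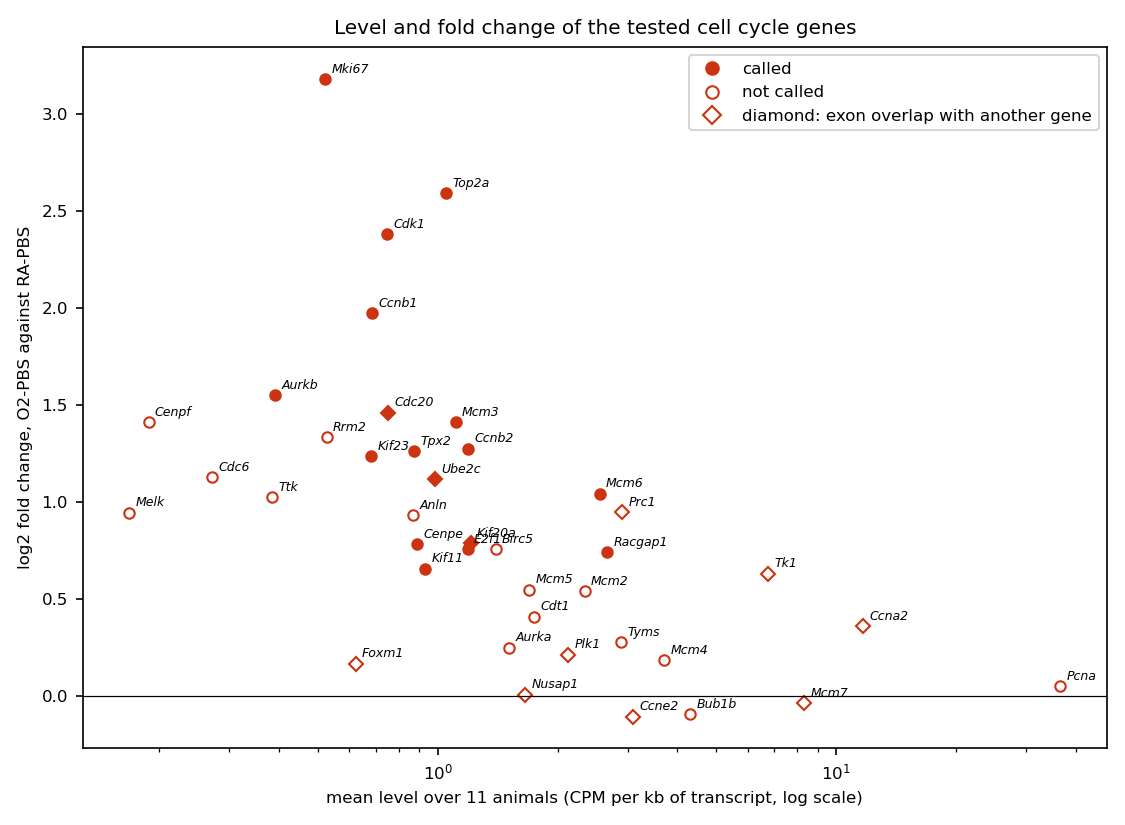
Mean level over 11 animals (CPM per kb of transcript, log axis) against the log2 fold change of O2-PBS against RA-PBS (fit without animal 10) for the 40 tested members; filled symbols were called and diamonds mark exon overlap with another gene. The 9 members farthest to the right, Pcna first, were not called.

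Summed over all 41 members, the CPM was 231 ± 17.6 (SD, n = 4) in RA-PBS, 321 ± 18.8 (n = 4) in O2-PBS and 280 ± 13.7 (n = 3) in O2-IC100 without animal 10, or 305 ± 51.6 (n = 4) with it. The 27 members of G2 and mitosis went from 97.9 ± 15.6 in RA-PBS to 160 ± 7.51 in O2-PBS, and stood at 124 ± 10.1 in O2-IC100 without animal 10. For the 14 members of G1 and S phase, which include Pcna, the sums were 133 ± 13.2, 161 ± 11.6 and 156 ± 3.86. These sums are descriptions and carry no test. RA-PBS animal 1, in which lens genes took 0.00372% of counts, was the lowest room air animal for 22 of the 41 members.

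**Figure D4:**
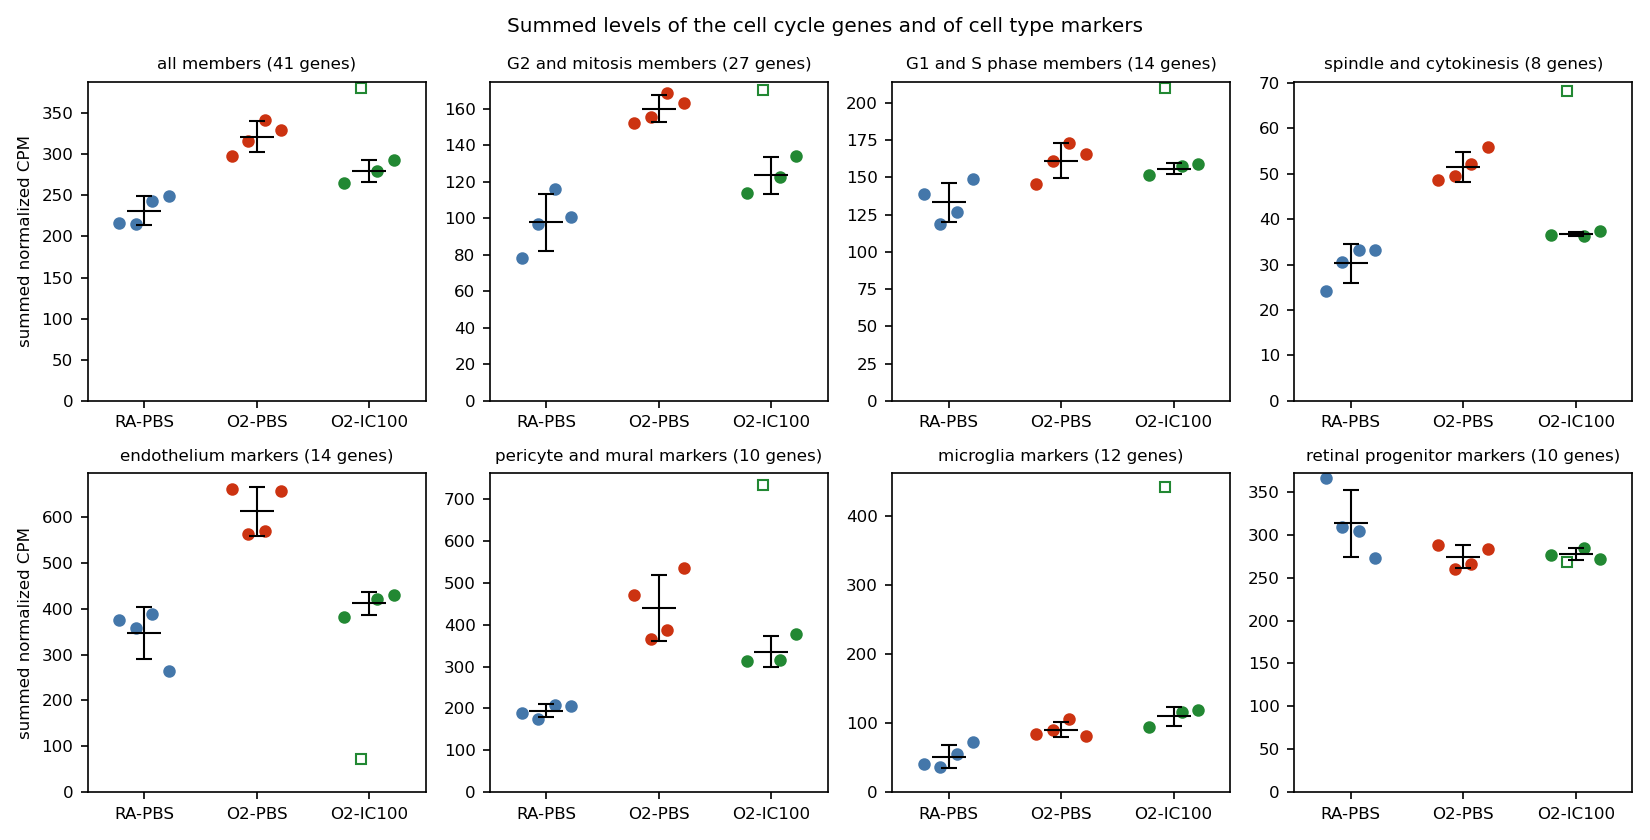
Summed TMM-normalized CPM (axes from 0) of member groups and of 4 cell type marker lists in each animal; symbols as in the plot of single genes, with mean and SD without animal 10. Between RA-PBS and O2-PBS, the sums of all members, of the 27 G2 and mitosis members and of the spindle and cytokinesis members do not overlap. Nor do those of the endothelial, mural and microglia markers. The sums of the G1 and S phase members and of the retinal progenitor markers overlap.

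Markers of other cell types moved in the same comparison. Without animal 10, 12 of 14 endothelial markers rose in O2-PBS against RA-PBS (summed CPM 264 to 388 in RA-PBS and 562 to 660.2 in O2-PBS), as did 8 of 10 pericyte and mural markers (176 to 208 and 365 to 534). Of 12 microglia and macrophage markers, 7 rose (36.6 to 73.7 and 81.9 to 106). Retinal progenitor markers overlapped between the groups (273 to 366 and 260.4 to 288), with 1 of 9 tested higher and 1 lower. All of these lists had counts for every marker. Of the other lists, 2 of 8 reactive glia markers rose, 2 of 8 Müller glia and 6 of 9 pigment epithelium markers fell, and 0 of 10 rod, 0 of 5 red blood cell and 0 of 2 other leukocyte markers (with Elane at 0 counts) were called. The summed CPM of 4 Y-linked genes (Ddx3y, Eif2s3y, Kdm5d and Uty) was 223 to 273 in RA-PBS animals 1, 2 and 3, 5.63 in animal 4, 7.95 to 9.84 in O2-PBS animals 5, 6 and 7, and 230 in animal 8. With that level as a covariate and without animal 10, 11 members rose in place of 17. The share of all tested genes called also moved between fits, so the lower count alone does not describe the members. Among the named members, Ccnb1, Ube2c, Kif23, Cenpe and E2f1 were no longer called, with log2 fold changes of 1.80, 1.10, 1.22, 0.71 and 0.72. The lens list fell in 17 of 17 tested genes, with 3 of the 4 RA-PBS animals carrying most of it. The part of the cell types and of the lens RNA in the cell cycle values was not tested beyond the lens covariate: with the lens level as a covariate in the fit of 12, 22 members rose, where 15.9% of all genes were called in either direction.

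The second comparison, O2-IC100 against O2-PBS, asks whether the antibody altered the cell cycle genes after hyperoxia. None of the 40 tested members passed the thresholds in either fit by edgeR. At an unadjusted p under 0.05 there was 1 member in the fit of 12 (Tk1, lower) and 10 in the fit without animal 10, all lower. Of all tested genes, 2784 of 16489 in the fit of 12 were under that p, in either direction. Without animal 10 it was 3201 of 16688. The thresholds were passed downward by 0.731% of all genes without animal 10, and by 0 genes with it. The median log2 fold change of the members was -0.17 with animal 10 and -0.42 without it, against 0.00 over all genes in each fit, and without it 36 of 40 had a lower mean in O2-IC100. DESeq2 on all 12 animals also called 0. Ranges that did not overlap, with O2-IC100 lower, were found for 11 of 40 without animal 10, where 16% of all genes had them, and for 1 of 40 with it, where 10.7% had them. In the opposite direction there were 2 of 40, against 19.4%.

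Without animal 10 the members with the smallest p were Mcm3 (log2 fold change -1.003 ± 0.26), Mcm2 (-0.48 ± 0.13), Racgap1 (-0.50 ± 0.15), Tpx2 (-0.90 ± 0.28) and Birc5 (-1.13 ± 0.37), with adjusted p values of 0.110, 0.116, 0.150, 0.154 and 0.167 (edgeR). In Mcm3 the 3 O2-IC100 animals lay between 2.25 and 3.17 CPM and the O2-PBS animals between 4.70 and 5.98. Mki67 and Top2a were also without overlap, their O2-IC100 animals reaching at most 6.61 and 6.17 CPM and their O2-PBS animals at least 7.83 and 7.65. Their log2 fold changes were -0.80 ± 0.48 and -0.77 ± 0.40, with adjusted p values of 0.361 and 0.296 (edgeR). Cdk1 (-0.32 ± 0.39) and Ccnb1 (-0.41 ± 0.66) differed by less than their standard errors. Pcna and Ccne2 were the 2 members without overlap in the opposite direction, at 62.8 to 68.1 CPM in O2-IC100 animals 9, 11 and 12 against 44.5 to 57.0 in O2-PBS, and at 10.2 to 10.4 against 7.65 to 9.47. Their log2 fold changes of 0.33 ± 0.17 and 0.29 ± 0.13 did not pass the test.

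The count of calls depended on the animals in the fit. When only these 7 animals entered it, 11 of 40 members fell and 0 rose, where 3.82% of all genes fell. The 11 were Mcm3, Mcm5, Tk1, Ccnb2, Foxm1, Aurka, Mki67, Top2a, Birc5, Tpx2 and Anln, with log2 fold changes from -0.61 for Aurka to -1.14 for Birc5. For Mki67 this fit gave -0.81 ± 0.17 (adjusted p = 0.00476, edgeR) and for Top2a -0.78 ± 0.16 (adjusted p = 0.00413, edgeR). DESeq2 without animal 10 called 3 members lower (Mcm3, Birc5 and Tpx2), where 1.81% of all genes fell. Both fits were added after the data had been seen.

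Several properties of the libraries moved with this comparison. The summed CPM of the 4 Y-linked genes was 282 to 324 in O2-IC100 animals 9, 11 and 12, 230 in O2-PBS animal 8, and 7.95 to 9.84 in O2-PBS animals 5, 6 and 7. Endothelial markers fell in 5 of 14 (summed CPM 382 to 430 in O2-IC100 without animal 10), mural markers in 3 of 10 (314 to 378), and microglia markers in 0 of 12 (94.7 to 119). Without animal 10, the log2 fold changes of Cdc20, Rrm2, Cdk1 and Mcm2 were -0.74, -0.52, -0.32 and -0.48. With the Y-linked level added as a covariate they were -0.46, -0.074, -0.27 and -0.52, with no call in either fit. The part of the cell types in the member values was not tested.

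Animal 10 stood above all other 11 animals for 21 of the 41 members, among them Mcm2, E2f1, Top2a, Cdc20 and Cdk1, and below all of them for Ccna2 and Ccne2. Its member counts (3014) were the lowest of the 12 libraries, its TMM factor was 0.324 and its summed member CPM of 380 falls to 123 when counts are divided by the library total alone. With lens genes left out of the library total it was 295, against 301 to 337 in the other 3 O2-IC100 animals.

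The remaining comparison, O2-IC100 against RA-PBS, shares its animals with the other 2 and shows how the treated oxygen group stood beside room air. In the fit of 12, 0 members were called by edgeR, although 13 had an unadjusted p under 0.05. Of all 16489 tested genes, 2183 were under that unadjusted p. DESeq2 called 6 members in the same animals. The share of all genes called moved with the method, so that count alone does not describe the members. Without animal 10, 3 of 40 rose and 0 fell, where 0.947% of all genes rose. Mki67 was higher by a log2 fold change of 2.38 ± 0.53, Cdk1 by 2.06 ± 0.43 and Top2a by 1.82 ± 0.42 (adjusted p = 0.0623, 0.0522 and 0.0690, edgeR). For each of the 3 the animals of the compared groups did not overlap, as for 10 of the 40 members, against 5.84% of all genes in that direction. Pcna, Mcm2 and Mcm7 had log2 fold changes of 0.38, 0.06 and 0.00.

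The wider cell cycle program was read from 119 other genes, of which 116 were tested. In O2-PBS against RA-PBS, 0 were called in the fit of 12. There 33 had an unadjusted p under 0.05, as did 1174 of all 16489 tested genes. Without animal 10, 24 of 116 (20.7%) rose and 1 fell, where 4.09% of all genes rose and 2.18% fell. Of these, 17 of the 24 were genes of mitosis and cytokinesis, out of 52 (32.7%) in that group. They included the kinesin Kif18b (log2 fold change 2.62), the mitotic kinase Pbk (2.49), the cohesin regulator Cdca5 (2.30), Dlgap5 (2.28) and the abscission gene Cep55 (2.13). In RA-PBS their CPM reached at most 0.368, 0.421, 0.277, 0.631 and 0.729, in that order. Fold changes from such low levels are limited by counting error. Outside mitosis, E2f8 (1.68), the replication-coupled methylation factor Uhrf1 (1.58), Clspn (1.18), Asf1b (1.13) and the G1 cyclin Ccnd1 (0.68) rose. The gene that fell was Spc25, a kinetochore component, at 77.7 to 129 CPM in RA-PBS and 29.5 to 43.4 in O2-PBS, a log2 fold change of -1.48 ± 0.18 (adjusted p = 0.000329 without animal 10 and 0.411 with it, edgeR).

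Of the D-type cyclins, which start the cycle in response to growth signals, Ccnd1 had a CPM of 23.8, 21.4, 31.3 and 27.7 in RA-PBS, 40.96, 39.4, 44.9 and 41.8 in O2-PBS and 26.2, 28.1 and 24.3 in O2-IC100 animals 9, 11 and 12. The O2-PBS animals stood apart from both other groups. Ccnd1 fell in O2-IC100 against O2-PBS without animal 10 by 0.66 on the log2 scale (adjusted p = 0.0381, edgeR), as did Uhrf1 by 1.21 (adjusted p = 0.0715, edgeR). They were the only genes of the 116 called in that fit, where 0.731% of all genes fell. In the fit of 12, 0 of the 116 were called (20 at an unadjusted p under 0.05, edgeR, where 2784 of all 16489 genes were). There the difference of Ccnd1 turned to 0.76 ± 0.61, that of Uhrf1 was -0.35 ± 0.49, and all 8 G1 cyclins and kinases had a higher mean in O2-IC100. Ccnd2 and Ccnd3 had log2 fold changes of 0.83 and 0.21 in O2-PBS against RA-PBS and -0.59 and -0.11 in O2-IC100 against O2-PBS, with no call. The last 2 turned to 1.93 and 0.57 in the fit of 12. Animal 10 carried 206, 219 and 192 CPM of Ccnd1, Ccnd2 and Ccnd3 and 637 CPM of the kinase inhibitor Cdkn1c, which was at 19.5 to 43.2 in the other 11 animals. The inhibitors Cdkn1a, Cdkn1b and Cdkn1c had log2 fold changes of 0.69, 0.08 and -0.57 in O2-PBS against RA-PBS and -0.28, 0.08 and 0.37 in O2-IC100 against O2-PBS without animal 10, and none of these 3 was called. With animal 10 the O2-IC100 difference of Cdkn1c was 3.09 ± 1.00, also without a call (adjusted p = 0.287, edgeR). Another inhibitor, Cdkn2c, which acts on Cdk4 and Cdk6, stood at 5.94 to 9.89 CPM in RA-PBS and 11.3 to 12.0 in O2-PBS, and rose by 0.66 ± 0.15 (log2, adjusted p = 0.0180 without animal 10 and 0.792 with it, edgeR).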

How the data were processed

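Poly(A) RNA-seq libraries of 12 P18 mouse retinas were analysed. The table deposited by the authors gives gene-level expected counts, made with Kallisto on GRCm39 (release 104) and tximport, without normalization. DESeq2 was the tool of the authors. Of the values, 42.2% were not whole, and counts were rounded. Gene-wise tests used edgeR 4.0.16 (R 4.3.3) with TMM factors, filterByExpr and robust quasi-likelihood F tests in 1 model of 3 groups, and Benjamini-Hochberg adjustment over all 16489 (12 animals) or 16688 (without animal 10) tested genes. The standard errors given with edgeR fold changes were derived, as the absolute log2 fold change divided by the square root of the F statistic. limma 3.58.1 (voom) and DESeq2 1.42.0 were alternatives. The scripts were tested on simulated data. Depth was 14907143 to 24438082 counts, where 3 counts correspond to 1.23e-05 to 2.01e-05% of a library, and such floors cover counting error only. Nothing states whether mice shared litters, so p-values measure the spread between these animals. Named genes were every called member, up to 15 by size of change, and 12 preset members. Other members are given by log2 fold change or count. The members and lists were chosen with earlier results of these data known. The oxygen exposure ends at P12 in the labels and on P11 in the methods.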

Additional observations from a re-analysis of the deposited data

Results flagged for a closer look

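For the 21 named members, 63 groups of 4 animals were checked for an animal whose gap to its nearest neighbour exceeded Dixon's 95% critical share of the range of the group. Chance gives about 1 in 20 such groups. The rule was met by 8 groups, 7 of them through animal 10 of the O2-IC100 group. Animal 10 was far above the other O2-IC100 animals for Mcm2 (29.4 CPM), Top2a (16.8 CPM), E2f1 (16.3 CPM), Mcm3 (10.1 CPM), Ccnb1 (4.92 CPM) and Foxm1 (4.92 CPM), and far below them for Ccne2 (4.29 CPM). The remaining group was Ccne2 in RA-PBS, where animal 4 was at 10.9 CPM and the other 3 at 8.43 to 8.78 CPM.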

How the results depend on the processing

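No paired analysis was possible because the groups share no replicate numbers. In O2-PBS against RA-PBS, where 3 members were called, DESeq2 called 7, upper-quartile scaling 5, no low-count filter 1, the 2 groups alone 14, and the lens level as a covariate 22. Without animal 10, the Y-linked covariate gave 11, DESeq2 19, also leaving out RA-PBS animal 1 gave 17, and also leaving out animal 3 gave 21. Leaving out 1 animal gave 0 to 17, with 17 only without animal 10. In O2-IC100 against O2-PBS, where 0 were called, leaving out 1 animal gave 0, and without animal 10 the 2 groups alone gave 11, DESeq2 3, leaving out also RA-PBS animal 1 gave 2 and animal 3 gave 1. In O2-IC100 against RA-PBS, where 0 were called, DESeq2 gave 6 and the lens covariate 19. Leaving out 1 animal gave 0 to 3. Without animal 10, the Y-linked covariate and leaving out also RA-PBS animal 1 or 3 each gave 3 and DESeq2 4. All calls were of 1 direction per comparison, and the cause of the changes was not tested. The share of all tested genes called moved with the setting too, so the counts alone do not describe the members. In O2-PBS against RA-PBS, 0.782% of all genes rose in the fit of 12, 4.09% without animal 10 and 3.53% in the 2 groups alone. In O2-IC100 against O2-PBS, 0% fell in the fit of 12. Without animal 10, 3.82% fell in the 2 groups alone and 1.81% by DESeq2. RA-PBS animal 1 had been planned as a lens-rich library, but it was not one. Lens genes took 0.00372% of its counts, against 4.47% in animal 3. The fits without animal 3, and the fits of 2 groups and of DESeq2 without animal 10, were chosen after seeing the data. Summed member CPM by library total was 249 in RA-PBS and 361 in O2-PBS, and without lens genes 254 and 361.

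Signs turned for Pcna in O2-PBS against RA-PBS (-0.10 with the lens covariate, -0.038 with the Y-linked covariate, -0.034 without animals 3 and 10, against 0.05 as reported). Leaving out 1 animal there gave ranges of -0.065 to 0.85 for Foxm1 and -0.072 to 0.22 for Pcna. In O2-IC100 against O2-PBS, values above 0 with animal 10 turned negative, in the order voom (not for Ube2c and E2f1), without animals 1 and 10, lens covariate, Y-linked covariate (not for Ccnb1), 2 groups without animal 10, DESeq2 without animal 10, and without animals 3 and 10: Cdk1 (-0.13, -0.32, -0.20, -0.27, -0.33, -0.34, -0.33), Ccnb1 (-0.15, -0.41, -0.61, -0.42, -0.43, -0.42), Aurkb (-0.14, -0.37, -0.40, -0.25, -0.38, -0.39, -0.38), Cdc20 (-0.48, -0.74, -0.72, -0.46, -0.75, -0.76, -0.75), Ube2c (-0.12, -0.18, -0.08, -0.13, -0.14, -0.13), E2f1 (-0.31, -0.21, -0.24, -0.32, -0.33, -0.32), Mcm2 (-0.15, -0.48, -0.30, -0.52, -0.49, -0.50, -0.49), Rrm2 (-0.26, -0.52, -0.72, -0.074, -0.53, -0.54, -0.53). Leaving out 1 animal gave ranges of Aurkb -0.37 to 0.35, Ccnb1 -0.41 to 0.36, Ccne2 -0.034 to 0.29, Cdc20 -0.74 to 0.58, Cdk1 -0.32 to 0.35, E2f1 -0.31 to 0.90, Foxm1 -0.68 to 0.084, Mcm2 -0.48 to 0.55, Rrm2 -0.52 to 0.87, Top2a -0.77 to 0.0056, Ube2c -0.12 to 0.39. Members at a few counts per library, such as Bub1, Melk and Ccnb1 in RA-PBS, are limited by counting error.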
